A study of Mus musculus with 44 samples.

Results

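The enzymes that build and sulfate chondroitin chains were followed through 44 libraries from the long bones of C57BL/6J mice (C57Bl6 in the labels) at 3 days of age. The 10 genes, of 46831 in the count table, were chosen by symbol and were Csgalnact1, Chsy1, Chsy3, Chpf, Chst11, Chst12, Chst13, Chst3, Chst7 and Chst15. The study sorted 8 skeletal populations by surface antigens after removing CD45+, Ter119+ and Tie2+ cells, and split each sort between SLIM-seq, an immunoprecipitation (IP) of RNA that carries N6-methyladenosine (m6A), and RNA-seq of the input. The populations were skeletal stem cells (SSC), pBCSP (spelled pre-BCSP in some labels) and BCSP, which are the stem and early progenitor populations, and 5 downstream populations, namely the pro-chondrogenic progenitors (PCP), the Thy subpopulation (THY), B-cell lymphocyte stromal progenitors (BLSP), the 6C3 subpopulation and hepatic leukemia factor expressing cells (HEC). Each WT population had 2 input and 2 IP libraries, 32 in all. The other 12 libraries were labelled Mettl3cko and covered SSC, pBCSP and BCSP with 2 input and 2 IP libraries each. In the study's text, Mettl3cko mice carried Mettl3 fl/fl with Col2a1-Cre, a transgene expressed from a collagen promoter of cartilage and its precursors, and no group was treated.

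Chondroitin sulfate is a long sugar chain of alternating glucuronic acid and N-acetylgalactosamine, hung on core proteins such as aggrecan, and its sulfate groups give cartilage the charge that holds water. Csgalnact1 adds the N-acetylgalactosamine that starts a chain on the linkage region. Chsy1, Chsy3 and Chpf form the polymerase complexes that lengthen it, with Chpf acting as a partner of the synthases. Chst11, Chst12 and Chst13 place sulfate on position 4 of N-acetylgalactosamine, Chst3 and Chst7 place it on position 6, and Chst15 adds a further sulfate at position 6 to units already sulfated at position 4. m6A is laid down by a methyltransferase whose catalytic subunit is Mettl3, mostly at GGACT and similar sequences, and often near stop codons.

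The exonic windows of 200 bases on each side of the stop codon of these genes differed in whether they held GGACT. The motif, searched as these letters on the transcript strand, was found in the windows of 6 of the 10 genes and in 38.8% of 17290 coding transcripts with a complete window. The 25 bases around the GGACT nearest to each stop codon are given because the IP to input ratios can be read beside them, with the motif in capitals and the sequence 5′ to 3′ on the gene's strand, from GENCODE vM21 transcripts on GRCm38.
Csgalnact1: acctgtacggGGACTtttccacctg
Chsy1: ttcttacacaGGACTccttaaagat
Chst11: tctacaaactGGACTttttaatgtt
Chst12: acctgctcagGGACTgagcccccag
Chst13: tctataagatGGACTttctgctctt
Chst7: tgagacactgGGACTgatttggtat
The Chsy1 run lay at chr7:66172530-66172554 on the plus strand, in the 3' UTR within exon 3, with its A 121 bases after the last base of the stop codon. The Chst7 run was also in a 3' UTR, at chrX:20097046-20097070 on the plus strand in exon 2, 132 bases after it. The runs of Chst11, Chst13 and Csgalnact1 were in coding sequence. In Chst12 the T of GGACT began the stop codon, and the run reached into the 3' UTR. Chst12 had its run at chr5:140524863-140524887 on the plus strand in exon 2, Chst11 at chr10:83191738-83191762 on the plus strand in exon 3, Chst13 at chr6:90309005-90309029 on the minus strand in exon 3, and Csgalnact1 at chr8:68358598-68358622 on the minus strand in exon 10. Their A was 4, 49, 49 and 186 bases before the last base of the stop codon. The sites of Chst11 and Chst13, which are paralogs, lay at the same distance from the stop codon and were identical at 18 of 25 positions. Chpf, Chst3, Chst15 and Chsy3 held no GGACT in the window, and along the whole transcript they held 1.04, 0.982, 1.98 and 1.12 per kb beside a median of 1.02 per kb over 21699 coding genes. A match is a description of the letters, not a mapped site.

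The input libraries gave 19795666 to 44046651 counts in WT and 30050178 to 35325482 in Mettl3cko, and the IP libraries 16480027 to 35856651 and 22056571 to 33126857. Replicates correlated at 0.954 to 0.977 in WT input and at 0.888 to 0.922 in WT IP (Pearson's r of log2 CPM), but only at 0.801 to 0.844 in Mettl3cko IP. Counts were scaled to the library total times a TMM factor and are given as CPM, and a level was compared between genes only as CPM per kb of annotated exon. Of the sort antigens, Thy1 and Enpep, the gene of the 6C3 antigen, followed the labels. Thy1 was at a mean of 20.8 to 27.4 CPM in PCP, THY and BLSP and at most 0.273 in the other WT populations. Enpep was at 42 and 53.3 CPM in 6C3 and HEC and at most 6.32 in the other WT populations. Tek, the gene of Tie2, was at 7.1, 6.04 and 2.56 CPM in PCP, THY and BLSP and at most 0.659 in the others. Ptprc, the gene of CD45, was at most 0.785 CPM in WT. Itgav, the gene of the sort antigen CD51, was at 33.7 to 57.5 CPM in SSC, pBCSP and BCSP and at 86.8 to 104 downstream. The summed level of 8 chondrocyte markers was 94100 to 114000 CPM in the 6 WT stem and progenitor libraries, 42900 to 99300 in 6C3 and HEC, and 7700 to 20300 in PCP, THY and BLSP. Col2a1 made up most of it (means of 79200 CPM in SSC, 52300 in 6C3 and 72800 in HEC). Acan, Sox9, Col9a1, Hapln1 and Comp also had higher means in 6C3 and HEC than in PCP, THY and BLSP. Matn1 went the other way, at 4.61 and 3.35 CPM in 6C3 and HEC against 9.71 to 18.3. Matn3 was mixed, at 190 and 186 against 128 to 417. PCP, named as pro-chondrogenic, had none of the 8 chondrocyte markers higher than the other 4 downstream populations and 3 lower. Those 4 include 6C3 and HEC, and the PCP sum of 17400 to 20300 CPM was above THY (7700 to 7880) and BLSP (14300 to 16300). In PCP 2 of 3 hypertrophic chondrocyte, 6 of 7 osteoblast, 4 of 4 marrow stroma and 5 of 6 endothelial markers were higher (median log2 differences 1.29, 2.13, 2.49 and 5.04). Of all genes, 3.15% were higher and 0.947% lower in this comparison. In bulk libraries, fewer cells that use a gene and less of its RNA per cell cannot be told apart. The 2 libraries of a group are described in the study as independent, and the labels do not say which animals gave them.

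Per length, Chst12 and Chpf were the most abundant of the 10 mRNAs over the 16 WT input libraries, at means of 70.8 and 67.4 CPM per kb. Csgalnact1 followed at 18.1, Chsy1 at 15.8, Chst11 at 11.4, Chst3 at 8.27 and Chsy3 at 6.44. Chst7 and Chst15 were near 2 (2.27 and 2.1 CPM per kb), and Chst13 was at 0.32, so the position 4 enzymes in these cells were Chst12 and Chst11. The order differed between the sets, since Chst12 led in the stem and progenitor populations (120 against 39.4 CPM per kb for Chpf) and Chpf led downstream (84.3 against 41.5 for Chst12).

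By the edgeR test, all 10 genes differed in mean level between the stem and progenitor populations and the 5 downstream populations, in opposite directions. Csgalnact1, Chsy1, Chst11 and Chst12 were higher in SSC, pBCSP and BCSP, while Chpf, Chsy3, Chst3, Chst7, Chst15 and Chst13 were lower. Of all 20060 genes tested, 51.4% passed the same test (edgeR quasi-likelihood F test with Benjamini-Hochberg adjustment over all genes tested, adjusted p under 0.05), with 23.1% higher and 28.3% lower, a high background that the 10 calls are read against. The median log2 difference was -1.02 over the 10 genes and -0.11 over all genes. The edgeR p rests on the spread between the 2 libraries of a population, not on that among populations. An exact two-sided permutation over the 56 splits of the 8 population means gave p = 0.179 for Chst3 and 0.0714 for Chst7 and Chst15. For the other genes it gave 0.0179 or 0.0357. Marker lists of other cell types moved in the same comparison. All 5 tendon and fibroblast markers were lower (summed level 115 to 296 CPM against 579 to 3900 downstream), as were all 4 marrow stroma markers (24.5 to 122 against 126 to 2390) and 6 of 10 blood cell markers with 1 higher (13.5 to 23.7 against 24 to 104). The osteoblast sum was 5550 to 11600 CPM against 62400 to 142000, although 5 of its 7 markers were higher and 1 was lower. All 8 chondrocyte and all 3 hypertrophic chondrocyte markers were higher. The part of these lists in the differences of the 10 genes was not tested.

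**Figure D1:**
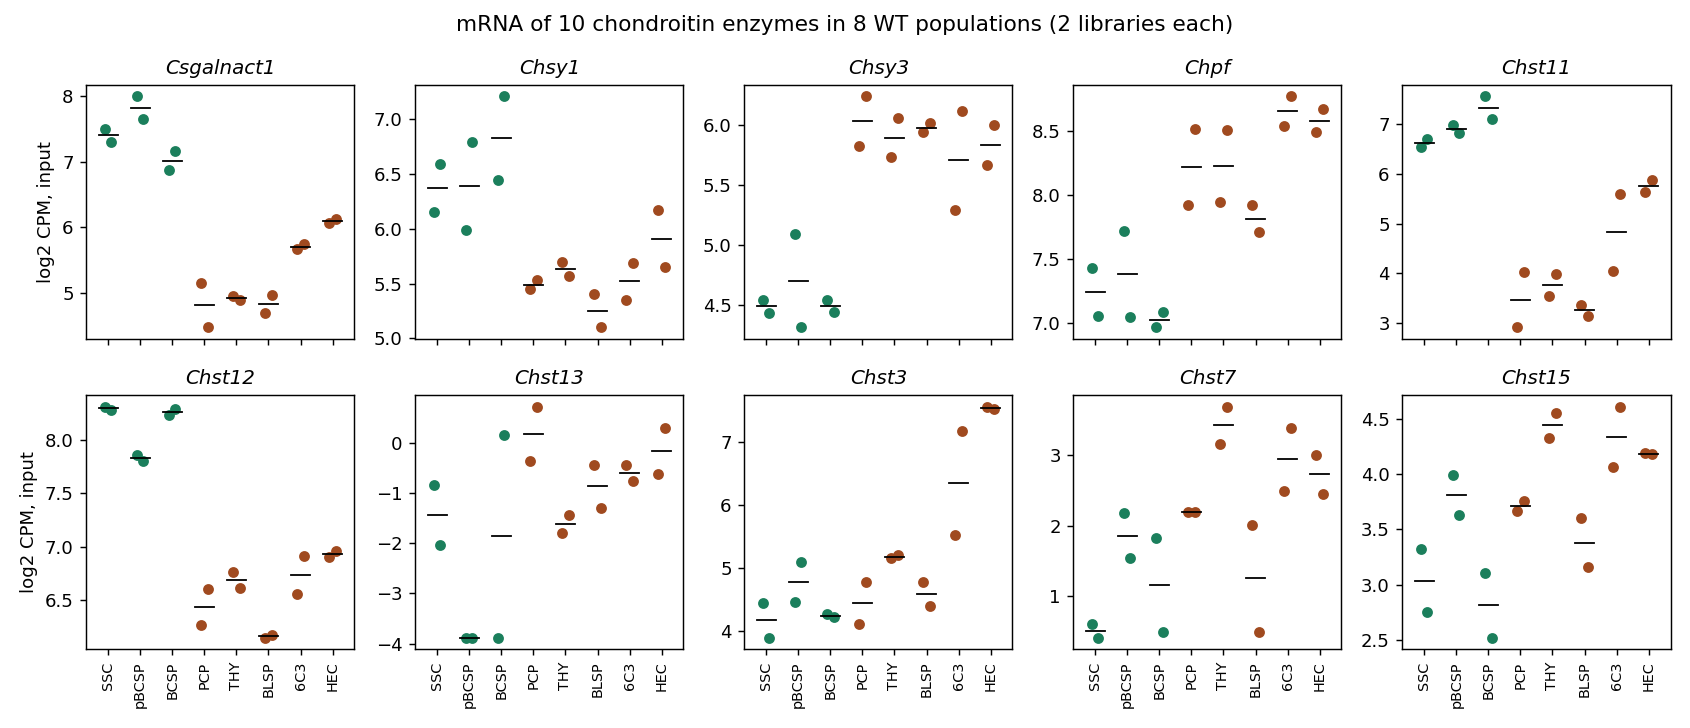
Input level of each of the 10 genes in the 8 WT populations, as log2 CPM, with 1 point per library (2 per population). Chst11, Chst12 and Csgalnact1 lie higher in every library of SSC, pBCSP and BCSP than in any downstream library, and Chsy3 lies lower.

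Csgalnact1 (ENSMUSG00000036356.15, chromosome 8 of GRCm38 from 68356781 to 68735146), which starts the chain, was counted at 256 and 203 CPM in pBCSP, 182 and 158 in SSC, 117 and 143 in BCSP, 66.8 and 69.4 in HEC, 50.6 and 53.2 in 6C3, 30.9 and 29.7 in THY, 35.2 and 22 in PCP and 25.7 and 31.3 in BLSP. The 6 stem and progenitor libraries were all above the 10 downstream ones, and among neighbours in the order of means only THY, PCP and BLSP overlapped. The log2 difference was 2.06 ± 0.11 (SE, adjusted p = 6.45e-10), and the exact two-sided permutation test over the 56 splits of the 8 population means gave p = 0.0179, the smallest it allows.

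Chst11 (ENSMUSG00000034612.7, chromosome 10 from 82985498 to 83195900) had the widest fold range of the 9 genes counted in every population, with 189 and 138 CPM in BCSP, 126 and 114 in pBCSP, 92.8 and 105 in SSC, 49.9 and 58.9 in HEC, 16.5 and 48.3 in 6C3, 11.5 and 15.7 in THY, 7.47 and 16.1 in PCP and 10.2 and 8.76 in BLSP. The mean in BCSP was 17.3 times that in BLSP, and the first 5 populations in this order did not overlap their neighbours. Its log2 difference between the sets was 2.60 ± 0.20 (SE, adjusted p = 4.06e-08, exact permutation p = 0.0357), which rose to 3.34 when 6C3 and HEC, whose chondrocyte marker sums reached up to 99300 CPM, were taken out of the comparison.

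Chst12 (ENSMUSG00000036599.10, chromosome 5 from 140505550 to 140525724) stood at 317 and 312 CPM in SSC, 300 and 313 in BCSP and 232 and 222 in pBCSP. In the downstream populations it stood at 120 and 125 CPM in HEC, 94.2 and 120 in 6C3, 108 and 97.6 in THY, 77.3 and 96.8 in PCP and 71 and 72 in BLSP. The 2 sets did not overlap, and the replicates of most populations lay close together. The log2 difference was 1.45 ± 0.094 (SE, adjusted p = 5.72e-09, exact permutation p = 0.0179). Chst13 (ENSMUSG00000056643.5, chromosome 6 from 90308349 to 90325185), the third position 4 enzyme, was close to the floor. It had 0 counts in both pBCSP libraries and in 1 BCSP library and at most 76 counts in any input library, with mean levels of 0.286 CPM in the stem and progenitor set and 0.675 downstream (adjusted p = 0.0177, exact permutation p = 0.0357). No fold change is given for it.

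Chsy1 (ENSMUSG00000032640.10, chromosome 7 from 66109515 to 66173798) was at 87.4 and 148 CPM in BCSP, 63.4 and 110 in pBCSP, 71.1 and 96.5 in SSC, 72.1 and 50.1 in HEC, and between 34.3 and 52 in the 8 libraries of THY, 6C3, PCP and BLSP. The sets overlapped, since 1 HEC library was above 1 SSC and 1 pBCSP library, and 6 of 7 neighbouring populations overlapped each other. Its log2 difference of 0.92 ± 0.15 (SE, adjusted p = 0.000116, exact permutation p = 0.0179) was the smallest of the 4 higher genes. Chsy3 (ENSMUSG00000058152.8, chromosome 18), its paralog, went the other way. It was at 23.1 and 21.7 CPM for BCSP, 33.9 and 19.8 for pBCSP and 23.2 and 21.4 for SSC, and at 39.1 to 75.5 (median 62.5) in the 10 downstream libraries. No library of one set reached the other, and within each set the populations overlapped. The log2 difference was -1.42 ± 0.16 (SE, adjusted p = 1.58e-06, exact permutation p = 0.0179).

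Chpf (ENSMUSG00000032997.16, chromosome 1 from 75474569 to 75479307), the polymerase partner, was at 125 to 211 CPM (median 134) in the stem and progenitor libraries. Downstream it was at 372 and 438 CPM in 6C3, 360 and 409 in HEC, 247 and 364 in THY, 242 and 366 in PCP and 242 and 209 in BLSP. The sets met at 1 pBCSP and 1 BLSP library, and every neighbouring pair of populations overlapped. The log2 difference was -1.16 ± 0.14 (SE, adjusted p = 4.35e-06, exact permutation p = 0.0179).

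The position 6 enzymes and Chst15 were lower in the stem and progenitor set with more overlap. Chst3 (ENSMUSG00000057337.13, chromosome 10 from 60181532 to 60219260) was at 189 and 184 CPM in HEC, 45.7 and 145 in 6C3, 35.7 and 36.8 in THY, and at 14.7 to 34.2 in the 10 libraries of pBCSP, BLSP, PCP, BCSP and SSC. It was thus set apart by HEC and by 1 of 2 6C3 libraries rather than by the downstream populations together. Its log2 difference of -1.35 ± 0.22 (SE, adjusted p = 7.9e-05) had an exact permutation p of 0.179, and without 6C3 and HEC in the comparison it was -0.44 ± 0.23 (edgeR adjusted p = 0.127). Chst7 (ENSMUSG00000037347.7, chromosome X from 20059560 to 20097521) ranged from 1.27 to 4.48 CPM (median 2.15) and from 1.34 to 12.7 downstream (median 5.46), with the highest libraries in THY at 8.81 and 12.7. Its log2 difference was -1.44 ± 0.29 (SE, adjusted p = 0.000702, exact permutation p = 0.0714). Chst15 (ENSMUSG00000030930.14, chromosome 7 from 132235780 to 132317228) ranged from 5.66 to 15.8 CPM (median 9.23) and from 8.85 to 24.3 (median 17.3), a log2 difference of -0.87 ± 0.16 (SE, adjusted p = 0.000257, exact permutation p = 0.0714). An antisense gene covers 17.9% of the Chst15 exons and 1 covers 3.54% of the Chsy1 exons, and the sources used here do not state whether counting used strand.

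**Figure D2:**
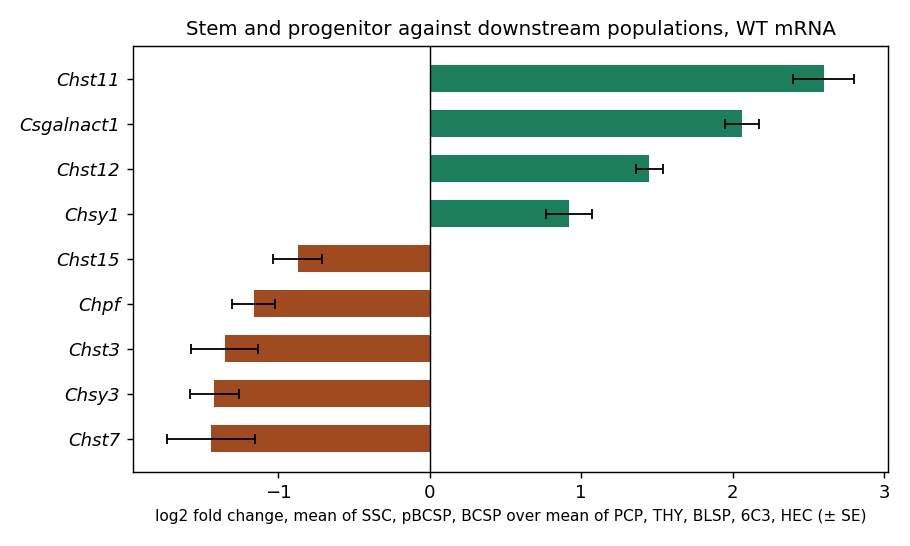
Log2 difference in input level of SSC, pBCSP and BCSP from the 5 downstream WT populations for each gene but Chst13, with SE bars. Csgalnact1, Chst11, Chst12 and Chsy1 lie above 0, and Chpf, Chsy3, Chst3, Chst7 and Chst15 lie below it.

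By the count of libraries alone, Chst11, Chst12 and Csgalnact1 were above, and Chsy3 was below, all libraries of the other set, which is 4 of 10 genes beside 16.7% of all genes tested. The test across all 8 populations, with no sets, called 9 of the 10 genes beside 40.1% of all genes (edgeR adjusted p from 6.96e-08 for Csgalnact1 to 0.00499 for Chsy1), and Chst13 had an adjusted p of 0.135.

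Since the members of a step shift against each other, their ratios per length were set side by side as a description. The summed level of Chst11, Chst12 and Chst13 over that of Chst3 and Chst7 was 17.5 to 53.1 (median 36.8) in the 6 stem and progenitor libraries and 1.83 to 8.4 (median 4.8) in the 10 downstream ones. Chsy1 over Chsy3 was 3.23 to 11.8 (median 7.16) and 0.919 to 2.45 (median 1.31), so that the paralogs came close to equal in parts of the downstream set. Chpf over the sum of Chsy1 and Chsy3 moved the other way, from 0.918 to 2.76 (median 1.33) to 3.16 to 6.36 (median 4.13). None of the 3 ratios overlapped between the sets. They were built from genes already seen to differ between the same sets, mostly in opposite directions. The gaps follow in part from those differences and are no further evidence. They are ratios of mRNA levels and no chain was measured.

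**Figure D3:**
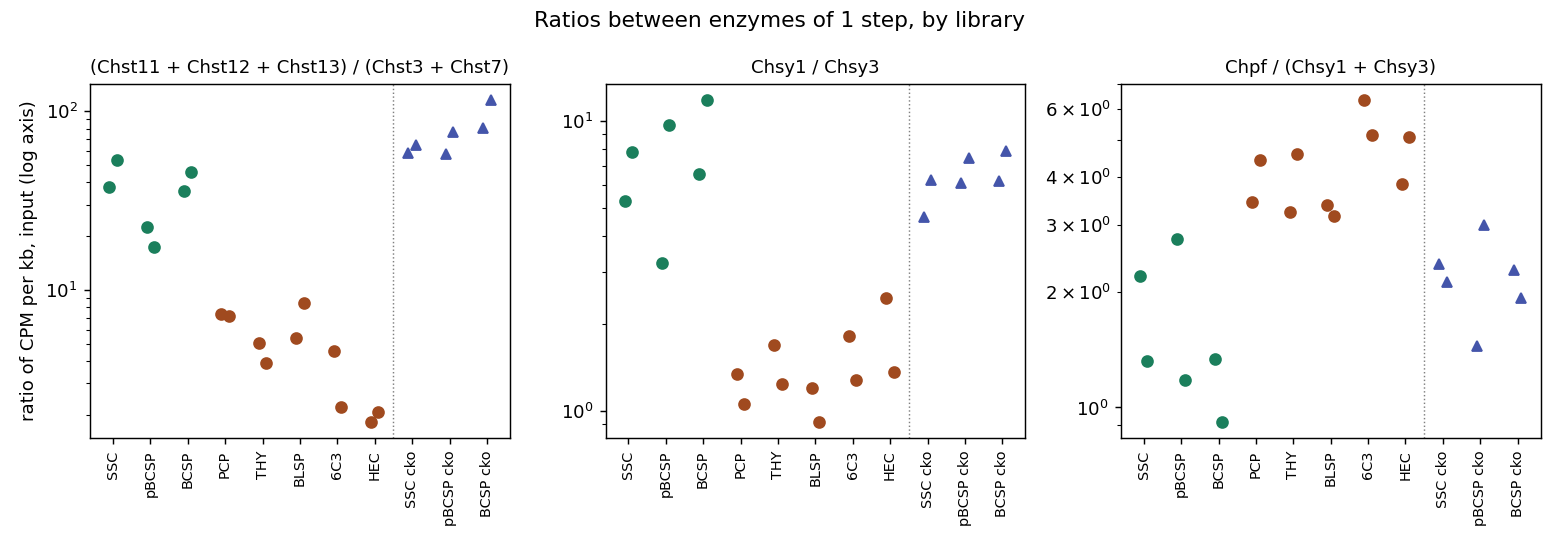
Ratios of length-scaled input levels per library, on log axes, for position 4 over position 6 sulfotransferases, Chsy1 over Chsy3, and Chpf over the sum of Chsy1 and Chsy3, in the WT populations and the Mettl3cko libraries. The position 4 over position 6 ratio lies at 17.5 to 53.1 in WT stem and progenitor libraries, at 1.83 to 8.4 downstream and at 57.6 to 116 in the Mettl3cko libraries. This ratio is built from genes already seen to differ between the same groups.

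The comparison of SSC with THY, a pair the study used for single genes, called 8 of the 10 genes, 3 higher and 5 lower, beside 28.5% of all genes (12.6% higher and 15.9% lower). Chst11 was among the study's single genes. For it the study reported a higher m6A level, by PCR after an m6A IP, and higher mRNA, by RT-qPCR, in SSC than in THY. Csgalnact1, Chst11 and Chst12 were higher in SSC by 2.36 ± 0.23, 2.74 ± 0.43 and 1.49 ± 0.19 on the log2 scale (SE, edgeR adjusted p = 1.74e-06, 0.00016 and 2.77e-05). Chst7 was lower by the most, with a log2 difference of -3.10 ± 0.58 (adjusted p = 0.000817) from 1.46 and 1.27 CPM in SSC and 8.81 and 12.7 in THY. Chsy3, Chst15, Chpf and Chst3 were lower as well, with log2 differences of -1.55 ± 0.29, -1.52 ± 0.30, -1.12 ± 0.26 and -1.12 ± 0.40, the last at an adjusted p of 0.048. The Chst3 call was lost in 7 of 16 fits with 1 library left out, those without SSC replicate 1 or 2 or THY replicate 1 or 2 (adjusted p = 0.0665, 0.249, 0.127 and 0.141) and those without BLSP replicate 1 or HEC replicate 1 or 2 (0.051, 0.0565 and 0.0564). The Chpf call was lost without SSC replicate 2 or THY replicate 2 (0.0545 and 0.0761). Chsy1 did not pass (0.63 ± 0.30, adjusted p = 0.136), nor did Chst13 (adjusted p = 0.936).

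PCP, which the study places on the way to cartilage, differed from the other 4 downstream populations in only 1 of the 10 genes, beside 4.09% of all genes. Chst3 was lower in PCP (as 0.947% of genes were, with 3.15% higher), at 17.1 and 27.2 CPM against a mean of 85.6 (log2 difference -1.50 ± 0.35, SE, edgeR adjusted p = 0.0201). That call was lost when 6C3 and HEC were taken out (-0.44 ± 0.35, adjusted p = 0.956) and when the WT PCP input replicate 1 was left out (-1.18, adjusted p = 0.335). Csgalnact1 and Chst11 were at -0.56 ± 0.18 and -0.88 ± 0.34 (adjusted p = 0.108 and 0.206), and the other 7 genes had adjusted p from 0.52 to 0.936. The endothelial marker sum was 83.2 and 87.3 CPM in PCP and at most 23.5 in any other WT population, and its part in these values was not tested.

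The wider pathway was read from 7 lists of genes. For the stem and progenitor set against the downstream populations, 5 of 7 linkage region enzymes were higher and 1 was lower, with a median log2 difference of 0.6, beside 23.1% of all genes higher, 28.3% lower and a median of -0.11, and 6 of 8 genes of sulfate uptake and of the supply of the sulfate donor PAPS were higher and 1 was lower, with a median of 0.85. Papss2, a PAPS synthase, was higher by 2.66 ± 0.16 on the log2 scale (456 against 81.1 CPM, adjusted p = 2.91e-09), and Slc35d1, a transporter of UDP-sugars into the Golgi, by 2.58 ± 0.11 (146 against 23.1 CPM, adjusted p = 5e-11). Both were named after their values were seen. The other chondroitin and dermatan chain enzymes, Csgalnact2, Chpf2, Dse, Dsel, Chst14 and Ust, were mostly on the other side, with 1 higher and 5 lower of 6 and a median of -0.5. The heparan sulfate chain enzymes, which extend the same linkage region into another chain, were called 3 higher and 3 lower of 14 (median 0.16), a share no larger than that of all genes in either direction. The UDP-sugar supply genes gave 2 higher and 1 lower of 7, and the breakdown genes 4 higher and 3 lower of 10 (medians 0.2 and 0.15).

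Among the core proteins that can carry chondroitin sulfate, 8 of 14 were higher and 4 lower in the stem and progenitor set (median 0.88). Epyc, epiphycan of growth plate cartilage, was higher by 6.23 ± 0.25 (459 against 5.93 CPM, edgeR adjusted p = 4.78e-11) and Col9a2, a collagen IX chain, by 3.54 ± 0.13 (11200 against 1170 CPM, adjusted p = 1.85e-11). In SSC against THY, Col9a2 was higher by 5.58 ± 0.30 and Vcan, versican of loose matrix, was lower, with a log2 difference of -6.78 ± 0.49 (4.86 against 492 CPM, edgeR adjusted p = 8.52e-08). Ndst3, a heparan sulfate N-sulfotransferase, had a mean of 0 CPM in the stem and progenitor set and 1.88 CPM downstream, and 1.05 CPM in THY. In PCP against the other downstream populations, Hs2st1 of heparan sulfate (1.18 ± 0.24) and Ptprz1, a receptor phosphatase that carries chondroitin sulfate (1.47 ± 0.38), were higher, and Papss2 was lower at -1.01 ± 0.27 (edgeR adjusted p = 0.0102, 0.0403 and 0.0481). All 3 of these calls were lost with 6C3 and HEC taken out, at 0.77, 0.42 and -0.20 (adjusted p = 0.461, 1 and 1). With 1 library left out, Hs2st1 was lost in 1 of 16 fits (0.86, adjusted p = 0.184, without PCP replicate 2) and Ptprz1 and Papss2 in 7 each, those without PCP replicate 1 (1.70 and -0.60), BLSP or HEC replicate 1 or 2, and THY replicate 2 for both, with PCP replicate 2 for Ptprz1 (1.21) and THY replicate 1 for Papss2. With the replicate block Papss2 stayed at -1.01 (adjusted p = 0.0604).

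Some genes shared the course of the most abundant members over the 8 WT population means of log2 CPM (Pearson's r, over 20059 genes, points that share libraries and depth). The 3 most alike were Nt5c3b, Atp6v0c and Cbr1 for Chst12 (0.994, 0.992 and 0.992), Rpn1, Dlgap4 and Slc29a3 for Chpf (0.994, 0.992 and 0.99), and Mtfr1, Arl10 and Rab33b for Csgalnact1 (0.989, 0.988 and 0.988). Within the group, Chst12 ran with Chsy1 (0.963) and against Chsy3 (-0.977), Chst11 with Csgalnact1 (0.954), and Chst7 with Chst15 (0.944).

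The IP to input ratio was then compared within each WT population, to see which of these transcripts were enriched by the m6A antibody. Chsy1 was the gene most often enriched, in 7 of 8 populations, and Chpf, Chst12 and Csgalnact1 were depleted. With the thresholds of the study, a log2 ratio above 1 and an unadjusted p under 0.05, the m6A-tagged share of genes was 10.4% for SSC, 12% for pBCSP, 6.67% for BCSP, 10.6% for PCP, 12.4% for THY, 12.4% for BLSP, 14.5% for 6C3 and 13.5% for HEC. The 10 genes gave 8 such calls over the 8 populations, 7 of them for Chsy1 and 1 for Chst11. A ratio ranks a transcript against the rest of its own libraries and does not count m6A per molecule.

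For Chsy1 the log2 ratio of IP to input CPM, replicate 1 then 2, was 2.18 and 0.98 for SSC, 1.52 and 0.51 for pBCSP, 0.67 and -0.23 for BCSP, 0.97 and 1.48 for HEC, 1.57 and 1.25 for 6C3, 1.23 and 1.09 for BLSP, 0.57 and 1.43 for THY and 1.06 and 1.12 for PCP. IP exceeded input in 15 of 16 pairs, and the exception was in BCSP. The fitted ratios ran from 1.04 ± 0.31 in pBCSP to 1.71 ± 0.34 in SSC in the 7 tagged populations and stood at 0.21 ± 0.30 in BCSP (edgeR, unadjusted p = 0.51), where the value without WT BCSP input replicate 1 was -0.14. Of the 7 tagged populations, 6 also had an adjusted p under 0.05, and pBCSP had 0.0685. By that rule the share of all genes higher in IP was 4.14% for SSC, 9.15% for pBCSP, 0.848% for BCSP, 15.4% for HEC, 10.8% for 6C3, 11.5% for BLSP, 11.1% for THY and 4.85% for PCP. The values in PCP, THY and BLSP, at 1.05, 1.07 and 1.10, lay just above the threshold and fell to 0.88, 0.91 and 0.98 with no filter on low counts, and 1 library decided the call in 5 populations. The ratio fell under 1 in pBCSP without input or IP replicate 1 (0.67 and 0.90), in PCP without input replicate 1 or IP replicate 2 (0.88 and 0.98), in THY without input or IP replicate 2 (0.93 and 0.64), in BLSP without input replicate 2 or IP replicate 1 (0.84 and 0.82) and in HEC without input replicate 2 (0.99). That Chsy1 was tagged in 7 populations and not in BCSP does not show a difference between them, and the test of the ratio across the 8 populations gave an adjusted p of 0.787 for Chsy1. The Chsy1 window holds the 3' UTR GGACT shown above.

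**Figure D4:**
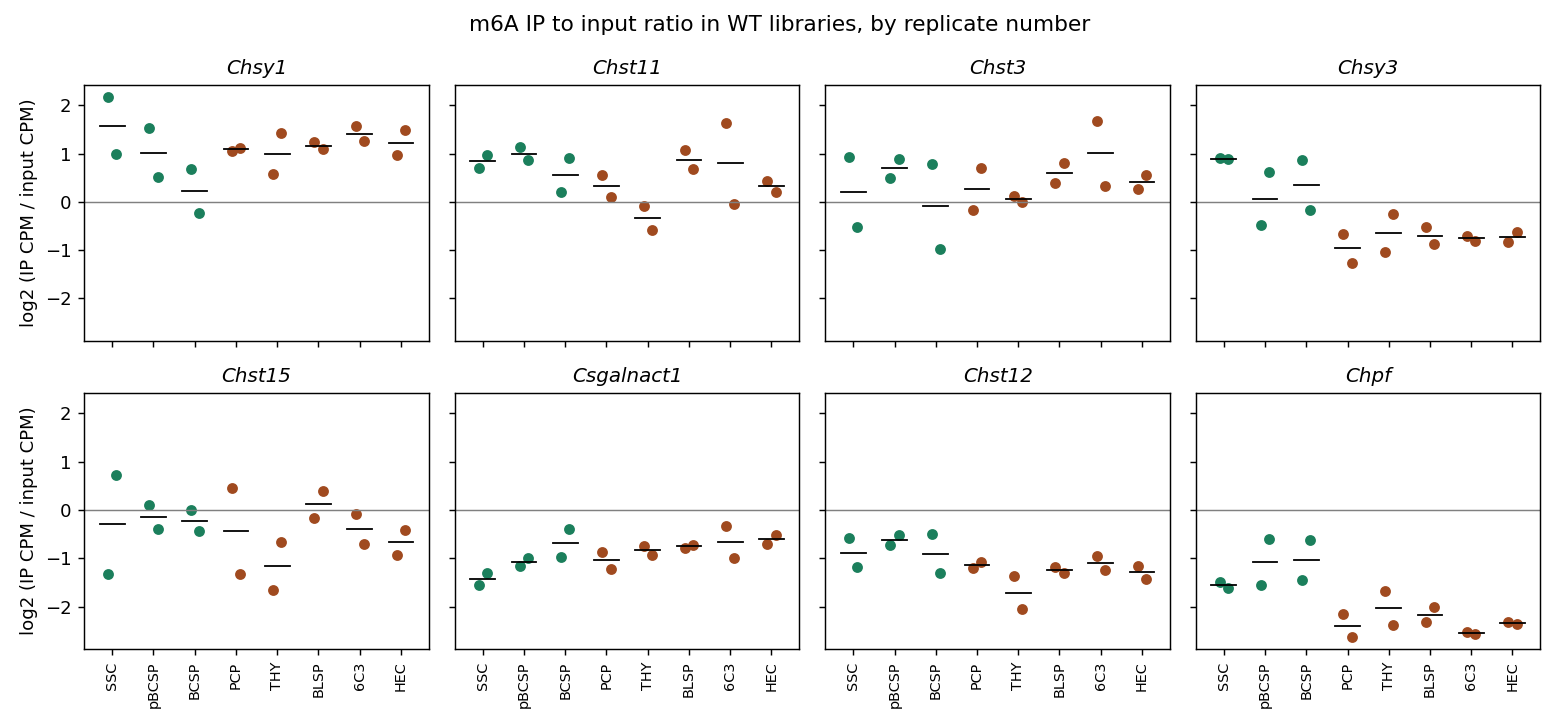
Log2 ratio of IP to input CPM per pair of libraries in the 8 WT populations, 1 panel for each gene but Chst7 and Chst13, with the line at 0 marking equal levels. Chsy1 lies above 0 in 15 of 16 pairs, and Chpf, Chst12 and Csgalnact1 lie below 0 in all 16.

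Chst11 was next, with IP above input in 13 of 16 pairs. Its fitted log2 ratio was 1.10 ± 0.20 in pBCSP (adjusted p = 0.0215), 0.94 ± 0.23 in SSC (adjusted p = 0.0634), 0.84 ± 0.31 in BLSP, and lowest in THY at -0.33 ± 0.33. It passed 1 in pBCSP only, where it was 0.83 without IP replicate 1, while SSC passed without input replicate 2 or IP replicate 1 (1.02 and 1.10) and BLSP without IP replicate 2 (1.06). Chst3 had IP above input in 13 of 16 pairs too, with an adjusted p under 0.05 in HEC alone (0.48 ± 0.15, adjusted p = 0.036), and its ratio in 6C3 rose from 0.80 to 1.01 with IP and input as pairs (unadjusted p = 0.129 and 0.00504). Chst15 was called in neither direction in any population by adjusted p, and its fitted ratios lay between -1.02 in THY and 0.04 in BLSP.

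Chpf was the most depleted of the well counted genes. Its log2 ratios were -1.44 and -0.63 for BCSP, -1.56 and -0.61 for pBCSP and -1.50 and -1.61 for SSC. They were -2.33 and -2.37 in HEC, -2.52 and -2.57 in 6C3, -2.32 and -2.02 in BLSP, -1.68 and -2.39 in THY and -2.15 and -2.64 in PCP. All 10 downstream pairs lay below all 6 stem and progenitor pairs, which held for no other gene of the 10 and in either direction for 1.64% of all genes. By adjusted p it was lower in IP in 7 of 8 populations, all but BCSP. The share of all genes lower by that rule was 5.27% for SSC, 10.9% for pBCSP, 2.31% for BCSP, 17.8% for HEC, 15.3% for 6C3, 16% for BLSP, 14.9% for THY and 7.48% for PCP. Chst12 was lower in the 5 downstream populations (log2 ratios -1.11 to -1.63) and at -0.54 to -0.83 in the others, and Csgalnact1 was lower in SSC, pBCSP, BLSP and HEC, with its lowest ratio in SSC (-1.34 ± 0.20, adjusted p = 0.0295). Chst7 had 0 IP counts in all 4 SSC and BCSP libraries against 36 to 106 in input, and like Chpf, Chst12 and Csgalnact1 it was below input in all 16 pairs, which 10.8% of all genes were, while none of the 10 was above input in all 16 (7.44% of all genes). Chst12, Csgalnact1 and the low-count Chst7 were thus below input in all 16 pairs, and their windows hold a GGACT. That of Chst7 lies in the 3' UTR, as does that of Chsy1. Chsy3 was lower in BLSP alone (-0.75 ± 0.17, adjusted p = 0.0222), Chst7 in HEC alone, and Chst13, tested in 4 populations, had IP counts of 0 in both HEC libraries (adjusted p = 0.0247).

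The ratio itself differed between the stem and progenitor set and the downstream set for 4 of the 10 genes, 3 higher and 1 lower, beside 4.84% of all genes (3.06% higher and 1.77% lower). Chpf was less depleted in the stem and progenitor populations, by 1.30 ± 0.20 on the log2 scale (SE, edgeR adjusted p = 0.000196). Chsy3 had a higher ratio there by 1.40 ± 0.27 (adjusted p = 0.00175), with 0.87 and -0.18 for BCSP, -0.48 and 0.61 for pBCSP and 0.90 and 0.89 for SSC against -1.26 to -0.25 in the 10 downstream pairs. In the same fit Chst12 was higher by 0.70 ± 0.19 (adjusted p = 0.0303), and Chst7 had an adjusted p of 0.0297 in the other direction, for which no fold is given because 4 of the 6 IP libraries of the stem and progenitor set had 0 counts. The Chst12 call was lost with RLE size factors (0.54, adjusted p = 0.104), with no filter (0.57, adjusted p = 0.082) and in 17 of 32 fits with 1 library left out, and RLE moved the median over all genes from -0.08 to -0.24. Relative to these medians the Chst12 difference was nearly the same. With IP and input of each sort taken as a pair (a block for the replicate number within each population, added after seeing the data), the test called 6.94% of all genes and 5 of the 10, the 4 above and Chst11 (0.60 ± 0.18, adjusted p = 0.0289). Without the pairs Chst11 was at 0.65 ± 0.25 (adjusted p = 0.162), and Chsy1, Csgalnact1, Chst3, Chst15 and Chst13 had adjusted p of 0.69 or more.

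Chpf and Chsy3 were thus lower in mRNA and higher in ratio in the stem and progenitor set. The ratio contains the same input libraries as the mRNA comparison, so the 2 measures are not independent. For Chpf the population means in IP overlapped, at 52.3 to 79.3 CPM against 49.9 to 75.3 downstream, with input means of 130 to 172 against 225 to 405. For Chsy3 the IP means were 27.3 to 41.5 against 31.7 to 40.7 CPM, with input means of 22.3 to 26.9 against 54.3 to 66.1. The sets thus stood apart in mean input level and not in IP level for these 2 genes. Mitochondrial transcripts took 1.56% to 2.92% of IP counts in the stem and progenitor libraries and 4.53% to 9.1% downstream, and their part in the ratio difference was not tested. Across the 8 populations the ratio test called Chpf alone of the 10 genes (adjusted p = 0.031) beside 0.485% of all genes, a call that was lost under RLE (adjusted p = 0.087) and in 6 of 32 fits with 1 library left out, without SSC input replicate 2 (0.0525), BCSP input replicate 1 or 2 (0.0926 and 0.0649), HEC input replicate 2 (0.0572), THY IP replicate 2 (0.052) or 6C3 IP replicate 1 (0.0679). With the sorts as pairs it called 3.64% of all genes and 4 of the 10, namely Chpf (adjusted p = 1.6e-06), Chsy3 (0.000377), Chst7 (0.0184) and Chst11 (0.0498). In the pathway lists, the ratio was higher in the stem and progenitor set for 3 of 6 other chondroitin and dermatan enzymes, among them Chpf2, the paralog of Chpf, by 1.28 ± 0.24 (adjusted p = 0.00175). It was also higher for 3 of 14 heparan sulfate enzymes, among them Hs3st3b1 by 1.71 ± 0.25 (adjusted p = 1e-04) and Extl1 by 1.73 ± 0.44 (adjusted p = 0.0182), and for 3 of 14 core proteins. Sulfate and PAPS supply had 1 of 8 higher and 1 lower, and the linkage, UDP-sugar and breakdown lists had none called. The shares over all genes in this comparison of the sets were 3.06% higher and 1.77% lower.

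The Mettl3cko libraries were first checked by Mettl3 itself. Its input counts were 454 and 449 in WT and 486 and 593 in Mettl3cko SSC, 369 and 526 against 759 and 741 in pBCSP, and 571 and 618 against 458 and 607 in BCSP (edgeR adjusted p = 0.817, 0.618 and 0.901). No population gave a call, and the fitted log2 difference was above 0 in SSC and pBCSP (0.19 and 0.69) and below it in BCSP (-0.15). A count over the whole gene does not single out a deleted part. The genotype field of all 44 libraries reads wild type, so the genotype of each library was taken from its title and library name. For the mice, the study reported loss of Mettl3 by qRT-PCR and by western blot of SSC. It also reported lower m6A by dot blot of stem and progenitor cells and by SLIM-seq of SSC, pBCSP and BCSP.

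Over SSC, pBCSP and BCSP together, Chst12 was higher and Chst3 was lower in the libraries labelled Mettl3cko, 2 of the 10 genes beside 6.48% of all genes (3.75% higher and 2.72% lower). Within each population alone, edgeR called none of the 10 genes and 0% of all genes by adjusted p, while 2363 genes in SSC, 1341 in pBCSP and 2123 in BCSP (14.7%, 8.37% and 13%) had an unadjusted p under 0.05. Among the 10 genes these were Chpf in SSC, Chst12 and Chst3 in pBCSP, and Chst12 and Chpf in BCSP. DESeq2 called 718, 174 and 584 genes in the 3 populations at an adjusted p under 0.05, with none of the 10 in SSC, Chst3 in pBCSP (log2 difference -2.27, adjusted p = 0.00407) and Chpf in BCSP (0.77, adjusted p = 0.0227). At the thresholds of the study, a log2 difference beyond 0.5 and an unadjusted p under 0.05, 14% of genes in SSC, 8.36% in pBCSP and 12.9% in BCSP passed, and the same genes of the 10 passed.

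Chst12 was at 317 and 312 CPM in WT and 330 and 381 in Mettl3cko SSC, at 232 and 222 against 332 and 438 in pBCSP, and at 300 and 313 against 466 and 466 in BCSP. All 6 Mettl3cko libraries were above all 6 WT libraries, which held for no other gene of the 10 and for 4.07% of all genes in either direction. The log2 difference was 0.19 ± 0.18, 0.78 ± 0.23 and 0.60 ± 0.20 in the 3 populations and 0.53 ± 0.11 over them (SE, edgeR adjusted p = 0.015). The adjusted p was 0.0536 without WT SSC input replicate 2 and 0.0522 without WT pBCSP input replicate 2.

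Chst3 was at 21.6 and 14.7 CPM in WT and 9.53 and 17.8 in Mettl3cko SSC, at 22 and 34.2 against 3.39 and 8.04 in pBCSP, and at 19.2 and 18.5 against 12.3 and 4.24 in BCSP. The groups were apart in pBCSP and BCSP, as for 41.6% and 45.6% of all genes in these 2 against 2 comparisons, and overlapped in SSC. The log2 difference was -0.40 ± 0.38, -2.28 ± 0.52 and -1.18 ± 0.51 and over the 3 populations -1.28 ± 0.31 (SE, edgeR adjusted p = 0.0327), a call lost in 7 of the 12 fits with 1 library left out, 5 of them without a WT library (SSC replicate 1 or 2, pBCSP replicate 2, BCSP replicate 1 or 2) and 2 without Mettl3cko SSC replicate 1 or BCSP replicate 2. Their adjusted p was 0.0508 to 0.08. In SSC the value was 0 without Mettl3cko SSC input replicate 1.

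Chpf was at 173 and 133 CPM in WT and 265 and 209 in Mettl3cko SSC, at 211 and 133 against 140 and 213 in pBCSP, and at 125 and 136 against 215 and 227 in BCSP. The groups were apart in SSC, as for 47.8% of all genes, and in BCSP, but not in pBCSP. Over the 3 populations the log2 difference was 0.49 ± 0.15 with an edgeR adjusted p of 0.0766, which passed the threshold with no filter on low counts (0.0124), by DESeq2 (0.51, adjusted p = 0.0168), and by edgeR without pBCSP input replicate 1 of WT or of Mettl3cko (0.0455 and 0.0314). The remaining 6 tested genes with a fold had log2 differences between -0.19 for Chst11 and 0.45 for Chst15, with adjusted p of 0.374 or more, and Chst13 had 10 counts in all 6 Mettl3cko input libraries together. Whether the 3 populations differed in their change was tested, and edgeR called none of the 10 genes nor any gene (0%, with 839 genes at an unadjusted p under 0.05 and 58 genes called by DESeq2, none of the 10).

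**Figure D5:**
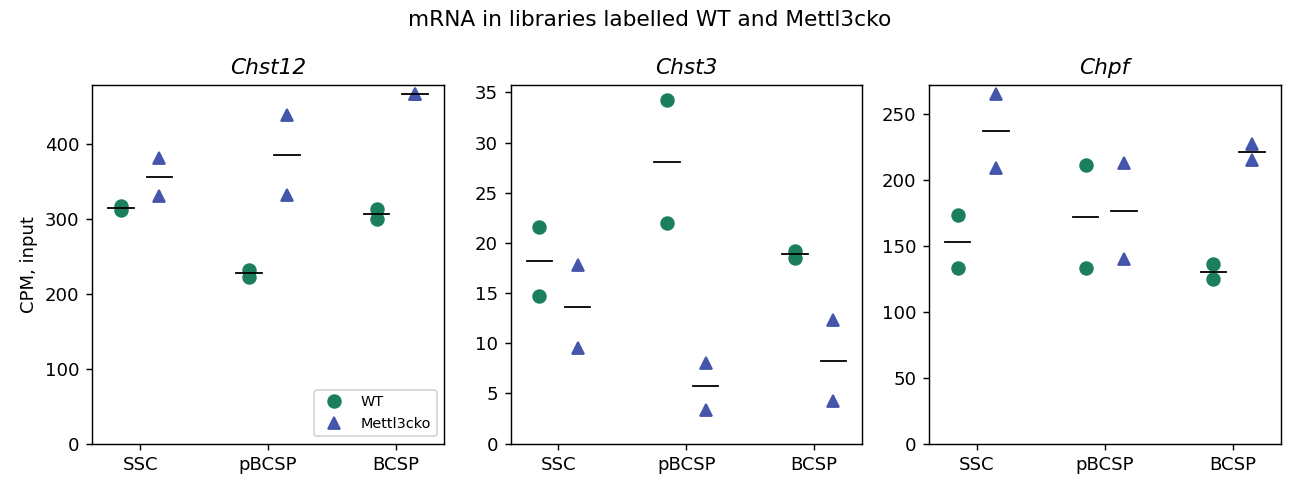
Input level of Chst12, Chst3 and Chpf in the 6 WT and 6 Mettl3cko libraries of SSC, pBCSP and BCSP, in CPM, 1 point per library. Chst12 lies higher in all 6 libraries labelled Mettl3cko than in all 6 WT libraries, and Chst3 lies lower in pBCSP and BCSP.

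The ratio of position 4 to position 6 enzymes per length, which contains Chst12 and Chst3, was 57.6 to 116 (median 71) in the 6 Mettl3cko libraries, above the 17.5 to 53.1 of the WT libraries. It was built from genes already called in the same libraries, so the gap follows in part from those calls and is no further evidence. The sum of Chst3 and Chst7 under it was small, at 1.94 to 2.74 CPM per kb in Mettl3cko and 2.85 to 6.54 in WT. Chst7 made up 0% to 81% of that sum in the Mettl3cko libraries. Chsy1 over Chsy3 was 4.66 to 7.86 and within the WT range. The summed level of blood cell markers was 28.6 to 53.8 CPM in the Mettl3cko libraries and 13.5 to 23.7 in WT, with 2 of 8 tested markers higher, Hba-a1 and Hbb-bs, and its part in these results was not tested. None of the 8 chondrocyte and none of the 7 osteoblast markers was called over the 3 populations, and 1 of 3 hypertrophic chondrocyte markers was higher. This was Ihh, a hedgehog ligand of prehypertrophic cartilage, at means of 225 CPM in Mettl3cko against 61.7 in WT SSC, 64.6 against 37.9 in pBCSP and 258 against 185 in BCSP. The tendon and fibroblast sum was lower in SSC (69.2 to 75.2 CPM against 115 to 136) and higher in pBCSP (417 to 441 against 284 to 296) and BCSP (292 to 376 against 147 to 183), with none of its 5 markers called. The part of these markers in the results was not tested either.

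In the wider pathway, the breakdown list had 3 of 10 genes higher and 1 lower in the Mettl3cko libraries over the 3 populations. Of all genes, 3.75% were higher and 2.72% lower, which the counts of this and the following lists are read against. Hexa, a lysosomal hexosaminidase subunit, was higher by 0.88 ± 0.14 (232 against 129 CPM, edgeR adjusted p = 0.00482), and Ids, iduronate sulfatase, was lower at -1.09 ± 0.25 (5.21 against 11.1 CPM, adjusted p = 0.0255). The linkage list had 1 of 7 higher and 1 lower, the latter B3gat3, which completes the linkage region, at -1.05 ± 0.22 (14.2 against 29 CPM, adjusted p = 0.0166). The Ids call was lost in 6 and the B3gat3 call in 1 of the 12 fits with 1 library left out. The UDP-sugar list had 3 of 7 higher, sulfate and PAPS supply 1 of 8 higher, the other chain enzymes 1 of 6 lower, the core proteins 1 of 14 higher and the heparan sulfate list, with 13 tested, none.

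The IP to input ratio was also compared between Mettl3cko and WT, and no gene of the 10 was called. edgeR called 0% of all genes in each population, with 2505 genes in SSC, 2087 in pBCSP and 1814 in BCSP at an unadjusted p under 0.05. DESeq2 called 1886, 1309 and 996 genes, none of the 10. Over the 3 populations edgeR called 3.94% of all genes, or 1% with the sorts as pairs, and DESeq2 called 2422 genes, again none of the 10, and the median log2 difference over all genes was -0.39. Chst11, Chsy1 and Chpf, which have the counts to be read, were at 0.42 ± 0.24, 0.22 ± 0.29 and 0.18 ± 0.28, and Chst12 was at -0.13 ± 0.23. The difference in this change between the populations was called for none of the 10 genes beside 0.285% of all genes.

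The Mettl3cko IP libraries of a population varied widely for some of the genes, Csgalnact1 among them. Chst3 had 1283 and 0 IP counts in BCSP, 1137 and 0 in pBCSP and 14 and 1563 in SSC, Chst15 had 449 and 0 in SSC, and Csgalnact1 had 576 and 4600 in SSC. A change of the ratio was not detectable at this spread for these genes. In the pathway lists over the 3 populations, Acan, aggrecan, had a ratio higher by 0.83 ± 0.22 (edgeR adjusted p = 0.0383) and Slc35b2, a PAPS transporter, a lower one at -0.85 ± 0.23 (adjusted p = 0.0476), calls that were lost in 11 and 19 of 24 fits with 1 library left out, the Slc35b2 call also with the sorts as pairs (-0.86, adjusted p = 0.0908). Ncan, neurocan, was called lower (adjusted p = 0.0148) at mean levels of 2.04 and 3.46 CPM over both assays and is given no fold. No gene of the other 5 lists was called.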

How the data were processed

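Per the labels and the study's methods, the authors trimmed reads with fastp 0.20.1, aligned them to GRCm38 with HISAT2 2.2.1 and made the deposited counts per gene with featureCounts 2.0.1, as whole numbers without normalization, and the annotation and strand setting of that step are not given in the sources used here. Of 46959 entries, 128 with 1 of 2 repeated names (at most 0.39% of a library) were left out. The deposited tables of the authors' own comparisons hold log2 fold changes and p-values of genes changed between WT and Mettl3cko SSC and of m6A-tagged genes, and were not used.

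Counts were tested with edgeR 4.0.16 in R 4.3.3 (TMM, filterByExpr, quasi-likelihood F test, Benjamini-Hochberg over all genes tested, call at an adjusted p under 0.05). CPM values carry TMM factors over all 44 libraries, and log2 CPM and ratios a prior count of 2. The 10 genes and all lists were chosen with earlier results of these data known. All 10 genes are named, with the 3 pathway genes of largest fold among those called in each comparison, and the 3 genes most correlated with each of the 4 most abundant members, of which those for Chsy1 are not reported here. Scripts were tested on simulated data. Alternatives were RLE factors, no filter, DESeq2 1.42.0, a replicate block and each library left out, and taking 6C3 and HEC out was added after seeing the data. Same-numbered input libraries of different WT populations shared little beyond the number (correlation of deviations -0.198 to 0.132). Each sort was split between IP and input in the study's text, and same-numbered IP and input libraries correlated at 0.0195 to 0.242 in WT (over 0.1 in 4 of 8 populations) and 0.04 to 0.0466 in Mettl3cko, so a fit with these pairs was added after seeing the data.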

Additional observations from a re-analysis of the deposited data

Results flagged for a closer look

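These results are listed because the effect was tested for a difference between groups of populations. The IP to input ratio differed between the stem and progenitor populations and the downstream populations for Chpf (edgeR adjusted p = 0.000196), Chsy3 (0.00175), Chst7 (0.0297) and Chst12 (0.0303), and across the 8 WT populations for Chpf (0.031). The Chpf and Chsy3 differences between the sets held in all 32 fits with 1 library left out, with adjusted p up to 0.000906 and 0.00643. For both genes the IP levels of the sets overlapped, and it was the mean input levels that stood apart. The Chst12 difference did not hold in 17 of them, and the Chst7 difference rests on IP libraries with 0 counts.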

How the results depend on the processing

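With 2 libraries a group, 1 library can decide a call, and genes under about 5 CPM (Chst13, Chst7) are limited by counts. The counts of called genes of the 10 were within 1.5 times of the values given above except as follows. PCP against the other downstream populations gave 1 call, 2 with no filter or by DESeq2, 0 without 6C3 and HEC (added after seeing the data), and 0 to 2 with 1 library left out (0 without PCP input replicate 1). The ratio across populations gave 1, 0 under RLE, 3 with no filter or by DESeq2, 4 with IP and input of a sort as pairs (replicate block within each population), and 0 to 2 with 1 library left out. The ratio between the sets gave 4 and 2 to 4 with 1 left out (2 without WT PCP IP replicate 2). The Mettl3cko mRNA comparison gave 0 in pBCSP, with 1 by DESeq2 and with no filter, and 0 in BCSP, with 1 by DESeq2; leaving out 1 library gave 0 to 1 in each, and 0 to 3 over the 3 populations. For the Mettl3cko ratio it gave 0 to 2 in SSC and BCSP, 0 to 1 in pBCSP, over the 3 populations and for their difference. The IP against input calls numbered 8, and 5 with no filter. With 1 library left out, the Chsy1 ratio in BCSP was -0.14 to 0.63, and the Mettl3cko differences of Chst3 in SSC -0.93 to 0 and of Chpf in pBCSP -0.29 to 0.41 (-0.23 without WT replicate 2). DESeq2 called more genes, 2582 against 1208 for the Mettl3cko mRNA, 2422 against 803 for its ratio, 2060 against 1227 for the ratio between the sets and 1150 against 123 for the ratio across populations. The causes were not tested. The replicate numbers are not shown to pair libraries of different populations, and with the replicate block all 17 counts were within 1.5 times, for example 10 of 10 genes for the mRNA of the sets and 2 for Mettl3cko. The pairs of IP and input left the other 6 ratio counts within 1.5 times.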
